A study of Capra hircus with 4 samples.

Results

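The genes described here encode the proteasome, the protease that degrades ubiquitin-tagged proteins. They were taken by name from the deposited table that pairs assembled unigenes with goat genes, as the genes called PSMA, PSMB, PSMC, PSMD, PSME, PSMF or PSMG followed by a number. The rule found 45 of 11208 named goat genes, carried by 49 unigenes, with 1 unigene for 41 genes and 2 unigenes for 4 genes. One of the 45, PSMC3IP, encodes a protein of meiotic recombination and shares only the start of its name. It had 3, 7, 0 and 2 counts in the 4 libraries and was kept out of all sums, which leaves 44 genes.

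Muscle RNA from the longissimus dorsi of Cashmere goats (Capra hircus) aged 2 months was sequenced in 4 libraries. One library was labelled control. The other 3 were labelled treatment and came from goats given the beta-agonist ractopamine by mouth at 1 mg/kg body weight each morning, in a schedule of 28 dosing days and 21 withdrawal days. The labels give no day of sampling for any library, so the treated libraries are called T1, T2 and T3 after their labels. The series' own design text calls these 3 libraries replicates. The study's methods instead describe sequencing at several sampling times, during dosing and during withdrawal, with different goats killed at each. The treated libraries may thus be different treatment states, and every spread over them given here (SD, and the spread in the edgeR test) may hold differences between times as well as between animals. The lone control library gives no measure of the spread between control goats.

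The proteasome has a barrel-shaped core particle and a cap that feeds it. The outer rings of the core are built from alpha subunits (PSMA genes) and the inner rings from beta subunits (PSMB genes), of which PSMB6, PSMB7 and PSMB5 cut proteins with an N-terminal threonine. Interferon and immune cells bring in 3 other catalytic subunits, PSMB9, PSMB10 and PSMB8, which take the places of PSMB6, PSMB7 and PSMB5 and favour peptides for antigen presentation. The regulatory cap unfolds substrates with ATPases (PSMC genes) and binds and strips ubiquitin with non-ATPase subunits (PSMD genes). The PSME genes encode activators that cap the core without ATPase, PSMF1 an inhibitor, and the PSMG genes chaperones that help to assemble the core. In skeletal muscle this system carries much of the breakdown of myofibrillar protein.

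Among the 44 genes, 17 were classed by family name as core subunits (7 PSMA and 10 PSMB) and 22 as regulatory subunits (5 PSMC, 13 PSMD and 4 PSME). The class by name does not separate chaperones of cap assembly, such as PSMD10, from subunits of the finished cap. PSMF1 and 4 PSMG genes completed the set. Of the names of this kind in the goat assembly ARS1.2, PSMA7, PSMB11, PSMC1 and PSMD7 were not among the paired genes. The unigene paired with PSMA8 matched its goat protein at 87% identity, that protein is described as type-7-like, and the annotation table names the same unigene PSMA7, so the counts given for PSMA8 may be those of PSMA7. A unigene paired with LOC102174773, which ARS1.2 calls PSMD7, had 798, 508, 12 and 224 counts and is not among the 44 genes.

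The standard and inducible catalytic subunits are close relatives, and PSMB10 and PSMB8 had the highest mean log2 ratios to the control of all 44 genes, so the assembled sequence around the catalytic threonine is shown for all 6. Each line holds 60 coding bases from the deposited unigene, read 5′ to 3′, with the codon of the threonine that becomes the first residue of the mature subunit in capitals after a glycine codon.
PSMB6: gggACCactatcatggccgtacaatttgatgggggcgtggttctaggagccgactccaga
PSMB9: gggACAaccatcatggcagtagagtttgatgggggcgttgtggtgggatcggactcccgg
PSMB7: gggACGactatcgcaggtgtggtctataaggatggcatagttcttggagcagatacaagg
PSMB10: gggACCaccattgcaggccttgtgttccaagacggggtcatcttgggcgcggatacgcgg
PSMB5: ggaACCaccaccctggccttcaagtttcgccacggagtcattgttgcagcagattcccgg
PSMB8: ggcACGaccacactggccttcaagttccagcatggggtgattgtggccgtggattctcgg

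PSMB9 shared 47 of the 60 bases with PSMB6, PSMB10 shared 37 with PSMB7, and PSMB8 shared 46 with PSMB5. Over the aligned coding sequence the identity was 67.3%, 62.3% and 67.1% for the same pairs. The longest run of identical bases was 20, 12 and 18 bases, so a longer stretch of a read tells the members of a pair apart. The unigenes matched their goat proteins at 89% identity for PSMB10 and 92% for PSMB8. In the coding sequence the threonine codon began at base 103 in PSMB6, 61 in PSMB9, 130 in PSMB7, 118 in PSMB10, 178 in PSMB5 and 217 in PSMB8, counted from the first base of the coding sequence. The deposited files place no unigene on a chromosome. In the gene order of ARS1.2, PSMB8 and PSMB9 lie on either side of TAP1, which encodes a peptide transporter of antigen presentation, and PSME1 and PSME2 lie on either side of EMC9.

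The libraries held 8533046 counts (control), 7962590 (T1), 7339521 (T2) and 6675218 (T3). Counts on named goat genes, the base of every share below, were 6086312, 3991046, 133809 and 2697657. Levels are given as CPM, counts per 1000000 of these named counts. The T2 library stood apart, since 97.9% of its counts on paired unigenes fell on 25 unigenes that carry no gene name, all encoded by mitochondrial DNA, against 23.8% in the control, 42.8% in T1 and 55.2% in T3. One unigene, paired with TFCP2L1, held 15.3% of the named counts of T2 and at most 0.431% of those of any other library. A gene with 3 counts stood at 0.493, 0.752, 22.4 and 1.11 CPM in the 4 libraries, so T2 resolved only the abundant proteasome genes. Adding the unnamed unigenes to the base would multiply every ratio to the control by 0.751, 0.0278 and 0.588 in T1, T2 and T3, whereas TMM factors would multiply them by 1.25, 0.959 and 1.27. Ratios between proteasome genes within a library do not depend on this base. Of 10 listed skeletal muscle markers 7 had a unigene, and they summed to 92187 to 149394 CPM, although ACTA1 had 130, 6, 0 and 3 counts. In bulk muscle, fewer cells of a type and less RNA per cell cannot be told apart.

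Proteasome genes took a smaller share of the named counts in each treated library than in the control. The 44 genes held 27878, 13517, 317 and 8686 counts, which is 0.458% of the named counts in the control, 0.339% in T1, 0.237% in T2 and 0.322% in T3. The control library was the highest of the 4. Relative to it the share was 0.739 (95% interval 0.724 to 0.755), 0.517 (0.462 to 0.578) and 0.703 (0.686 to 0.720), and the mean over the treated libraries was -0.63 on the log2 scale ± 0.28 (SD, n = 3). All intervals here are exact, from the binomial distribution, and cover counting error only. The typical goat gene also had a smaller share of the named counts in the treated libraries. Over all 7544 genes with a mean of at least 10 counts the median ratio was 0.762, 0.659 and 0.724. The medians over the 44 proteasome genes, all of which passed that filter, were 0.795, 0.517 and 0.698. With genes at 0 counts set to 3 counts, the medians in T2 became 1.09 for all genes and 0.545 for proteasome genes. Set against the median goat gene, the proteasome total differed by -0.15 on the log2 scale ± 0.18 (SD, n = 3), a difference within the spread between the treated libraries. That mean was carried by T2, with -0.04, -0.35 and -0.04 in T1, T2 and T3, and without T2 it was -0.04. With genes at 0 counts set to 3 counts the value of T2 became -1.07 and the mean -0.39 ± 0.59 (SD, n = 3). With 1 control library the exact two-sided permutation test of the shares gave p = 0.5, the smallest value that 1 library against 3 allows.

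With limits of 0.6 and 3 on the ratio to the control, 12 of 44 proteasome genes were below 0.6 in T1 (27.3%), where 36.5% of all genes were. In T2, 23 of 44 were below 0.6 (52.3%), against a background of 18.8%, and in T3, 16 of 44 (36.4%), against 37.9%. Above 3 there were 3, 3 and 0 proteasome genes, where 4.51%, 7.62% and 2.16% of all genes were. The share of proteasome genes below 0.6 was thus above the background in T2, and below it in T1 and T3. A gene with 3 or fewer counts in T2 was counted as below 0.6 only where 3 counts would be, which needs a control level above 37.4 CPM. Among genes above that level, a comparison added after seeing the data, 23 of 32 proteasome genes were below 0.6 in T2 (71.9%), where 53.7% of all 2644 such genes were. With limits of 0.5 and 2, there were 11, 18 and 12 proteasome genes below the lower limit, where 27.7%, 14.3% and 26.9% of all genes were, and 6, 5 and 2 above the upper one, where 10.4%, 11.6% and 5.91% were. The 3 genes above 3 were PSMB8, PSMB9 and PSMB10 in T1, and PSMB8, PSMB10 and PSMG4 in T2.

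The test of the 3 treated libraries against the control by edgeR's quasi-likelihood method called none of the 44 genes at a Benjamini-Hochberg adjusted p of 0.05. Over all 8494 genes tested it called 6 higher (0.0706%) and 53 lower (0.624%). Unadjusted, 7 of the 44 had a p under 0.05, 2 of them higher and 5 lower, a share of 15.9% where 13.7% of all genes did so. DESeq2's Wald test called 0 of the 44 and gave 3 with an unadjusted p under 0.05. The spread in these fits comes from the treated libraries alone, and the control is assumed to vary as they do. In simulated counts of the same depths, the edgeR test recovered 68 of 98 genes changed 16-fold and 8 of 98 changed 4-fold. The median log2 fold change was -0.56 over the 44 genes and -0.36 over all genes tested.

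**Figure D1:**
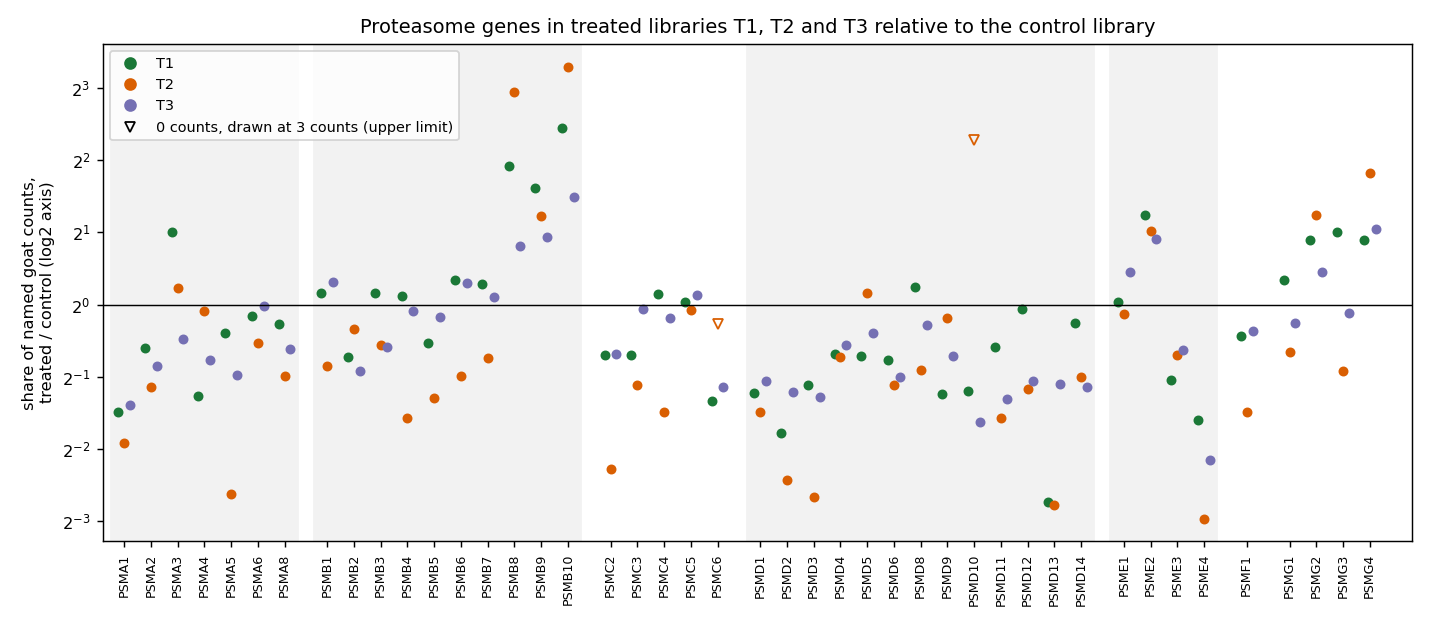
Share of named goat counts of each of the 44 proteasome genes in a treated library divided by its share in the control (y axis, log2 scale), by gene family (x axis); each point is 1 library, and open triangles mark genes with 0 counts, drawn at the limit that 3 counts would give. On this base PSMB8, PSMB9 and PSMB10 sit above 1 in all 3 treated libraries, as do PSME2, PSMG2 and PSMG4, whereas most PSMD genes sit below 1.

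The alpha subunits together had a lower share than in the control. PSMA counts were 0.783, 0.526 and 0.627 of the control share. The median ratio of the 7 genes was 0.762, 0.503 and 0.587, where the median of all goat genes was 0.762, 0.659 and 0.724, so the PSMA median equalled that of all genes in T1 and lay under it in T2 and T3. PSMA8 (possibly PSMA7, as above) and PSMA5 had the highest levels per length of the family in the control, at 156 and 93.0 CPM per kb, and PSMA4 the lowest, at 25.8. PSMA8 stood at 163 CPM in the control and 135, 82.2 and 107 in T1, T2 and T3. PSMA5 stood at 92.3 in the control against 70.4, 14.9 and 47.1 in T1, T2 and T3, where the value of T2 rests on 2 counts (ratio 0.162, interval 0.0196 to 0.587). For both genes the control was the highest of the 4.

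PSMA1 was among the 5 genes with the lowest ratios. It had 113 CPM in the control against 40.3, 29.9 and 43.0 in T1, T2 and T3, all below the control value. The value of T2 rests on 4 counts (ratio 0.264, interval 0.0718 to 0.680), so how close it lay to T1 and T3 was not resolved. The edgeR log2 fold change of PSMA1 was -1.53 (unadjusted p = 0.025, adjusted p = 0.270). PSMA3 was the only alpha subunit above its control value in 2 treated libraries, with 51.1 CPM in the control against 103, 59.8 and 36.7 in T1, T2 and T3, and the interval of the middle value (ratio 1.17, 0.501 to 2.33) spans 1. PSMA6 was nearest to the control level, at 108 CPM in the control against 96.7, 74.7 and 107 in T1, T2 and T3.

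The beta subunits other than the inducible ones kept a share near that of the control in T1 and T3. Their summed counts were 1.03, 0.524 and 0.951 of the control share. PSMB4, a structural beta subunit, had the highest level per length in the control at 165 CPM per kb, followed by PSMB6 at 142. PSMB4 stood at 156 CPM in the control against 170, 52.3 and 146 in T1, T2 and T3. The sign of the PSMB4 fold change depended on the scaling, with -0.30 on the log2 scale in edgeR and 0.05 with TMM factors.

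The standard catalytic subunits as a group were close to the control share in T1 and T3, at 1.07 (0.992 to 1.15) and 1.08 (0.994 to 1.17), and lower in T2, at 0.498 (0.299 to 0.780). PSMB6, with caspase-like activity, had 118 CPM in the control against 150, 59.8 and 146 in T1, T2 and T3. PSMB7, with trypsin-like activity, had 74.8 in the control against 91.2, 44.8 and 80.4 in T1, T2 and T3. PSMB5, with chymotrypsin-like activity, had 92.0 in the control against 63.6, 37.4 and 81.6 in T1, T2 and T3. PSMB6 and PSMB7 were thus above the control value in T1 and T3 and below it in T2, and PSMB5 was below it in all 3. In T2 these values rest on 8, 6 and 5 counts for PSMB6, PSMB7 and PSMB5. The interval of the ratio spans 1 for PSMB6 in T2 (0.217 to 1.001) and for PSMB5 in T3 (0.755 to 1.04). It also does for PSMB7 in T2 (0.219 to 1.32) and T3 (0.911 to 1.27). None of these differences passed the edgeR test, with adjusted p of 0.985 for PSMB6, 0.997 for PSMB7 and 0.780 for PSMB5. With the unnamed unigenes added to the base, the fold changes of PSMB6 and PSMB7 turned negative, at -0.83 and -0.94 on the log2 scale.

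Among the inducible catalytic subunits, PSMB10 and PSMB8 had the highest mean log2 ratios of the 44 genes, at 2.41 and 1.90, and PSMB9 stood level with the chaperone PSMG4, both at 1.25. PSMG4 was above PSMB9 in T2 and T3 and above PSMB8 in T3, and PSME2 was above PSMB8 in T3. On the base of named counts the inducible subunits were higher in every treated library, whereas with the unnamed unigenes added to the base they would stand below the control in T2. PSMB10, which replaces PSMB7, had 37 counts in the control against 132, 8 and 46 in T1, T2 and T3, or 6.08 CPM against 33.1, 59.8 and 17.1. Its ratio was 5.44 (3.75 to 8.06) in T1, 9.83 (3.96 to 21.5) in T2 and 2.80 (1.78 to 4.45) in T3. All 3 treated values lay above the control value beyond counting error.

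PSMB8, which replaces PSMB5, had 59 counts in the control against 147, 10 and 46 in T1, T2 and T3, or 9.69 CPM against 36.8, 74.7 and 17.1. The ratios of PSMB8 were 3.80 (2.79 to 5.23), 7.71 (3.52 to 15.2) and 1.76 (1.17 to 2.63). PSMB9, which replaces PSMB6, had 39 counts in the control against 78, 2 and 33 in T1, T2 and T3, or 6.41 CPM against 19.5, 14.9 and 12.2. For PSMB9 the ratios were 3.05 (2.05 to 4.60), 2.33 (0.273 to 9.01) and 1.91 (1.16 to 3.12), and the value of T2 rests on 2 counts. On the base of named counts, the values of PSMB8 and PSMB10 followed the same order of libraries, with T2 highest, then T1, then T3, then the control. The T2 values rest on 10 and 8 counts. For both genes the intervals of T1 and T2 overlap, and for PSMB10 that of T3 overlaps both, so the order of the treated libraries was not fully resolved. With the unnamed unigenes added to the base, T2 would stand below the control.

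By edgeR the log2 fold change was 2.39 for PSMB10 (unadjusted p = 0.012, adjusted p = 0.206), 1.93 for PSMB8 (unadjusted p = 0.035, adjusted p = 0.314) and 1.30 for PSMB9 (adjusted p = 0.492). None of them passed the test. PSMB10 and PSMB8 were the 2 higher genes among the 7 with an unadjusted p under 0.05. With the unnamed unigenes added to the base the fold changes remained positive but fell to 1.00 for PSMB10 and 0.45 for PSMB8.

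The count ratio of inducible to standard catalytic subunits does not depend on the base of the shares. It was 0.0778 (0.0648 to 0.0927) in the control, 0.294 (0.260 to 0.331) in T1, 1.05 (0.533 to 2.08) in T2 and 0.150 (0.124 to 0.182) in T3. The control library was the lowest and its interval overlapped none of the others. Relative to the control the ratio was 3.77 (3.04 to 4.70), 13.5 (6.65 to 27.4) and 1.93 (1.48 to 2.52) times as high, and the treated mean was 2.21 on the log2 scale ± 1.43 (SD, n = 3). The value of T2 rests on 20 inducible and 19 standard counts, and without that library the mean was 1.43 on the log2 scale ± 0.68 (SD, n = 2). The exact two-sided permutation p was again 0.5, the smallest possible.

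Counted per length of unigene, PSMB8 made up 9.08% of the PSMB5 and PSMB8 pair in the control, 35.4% in T1, 65.5% in T2 and 16.5% in T3. PSMB10 made up 7.51% of its pair with PSMB7 in the control against 26.6%, 57.1% and 17.5% in T1, T2 and T3. For PSMB9 and PSMB6 the shares of PSMB9 were smaller, at 5.56% in the control against 12.4%, 21.4% and 8.35% in T1, T2 and T3. The standard subunit was therefore the more abundant member of each pair in the control and in T1 and T3. In T2 the order was reversed for 2 of the 3 pairs, on 10 against 5 counts for PSMB8 and PSMB5 and on 8 against 6 counts for PSMB10 and PSMB7.

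**Figure D2:**
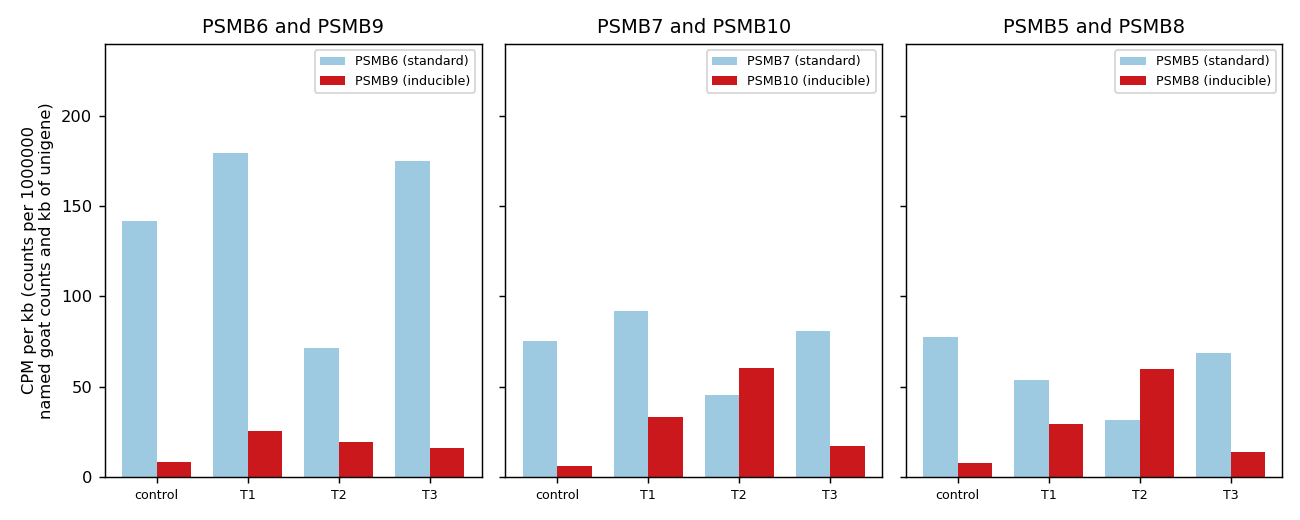
Levels of the standard (blue) and inducible (red) catalytic subunits as CPM per kb of unigene (y axis) in the 4 libraries (x axis), 1 panel per pair and 1 library per bar, with no error bars. The red bars are lowest in the control in each panel, and exceed the blue ones only in T2 for PSMB10 and PSMB8.

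On the base of named counts, the summed level of leukocyte markers stood in the same order of libraries as the values of PSMB8 and PSMB10. Of 10 listed markers 7 had a unigene, and their summed level was 27.4 CPM in the control, 156 in T1, 456 in T2 and 48.6 in T3. Most of that sum was CD74, the invariant chain of class II antigen presentation, with 98, 538, 57 and 109 counts. Only CD74 and CORO1A, an actin-binding protein of leukocytes, had a mean of at least 10 counts, and CORO1A had 51, 52, 3 and 16, a ratio below 1 in T3 (0.708, interval 0.377 to 1.26). The general leukocyte marker PTPRC had 2, 1, 0 and 0 counts and the monocyte marker CD14 had 3, 0, 0 and 0. CD68 and TYROBP were also at 0 in T2. Adipocyte markers (3 of 5 with a unigene) summed to 14.8, 111, 859 and 28.5 CPM and stood in that order too. Fibroblast markers (4 of 6) summed to 114, 168, 2220 and 270 CPM, and endothelial markers (4 of 5) to 297, 177, 740 and 385. The part of these other cell types in the inducible subunits was not tested.

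Other genes of antigen processing differed among themselves. Of 11 listed genes 8 had a unigene and 7 had a mean of at least 10 counts, of which 1, 0 and 1 were below 0.6 in T1, T2 and T3, and 1, 1 and 0 were above 3. Over all goat genes the shares were 36.5%, 18.8% and 37.9% below 0.6 and 4.51%, 7.62% and 2.16% above 3. The median ratio of the 7 genes was 1.22, 2.28 and 1.21, against 0.762, 0.659 and 0.724 for all genes. Their summed level was 248 CPM in the control against 321, 561 and 281 in T1, T2 and T3. IRF1, an interferon-responsive transcription factor, had 2.46 CPM in the control against 29.6, 14.9 and 6.67 in T1, T2 and T3, where the value of T2 rests on 2 counts. TAPBP, which loads peptides onto class I molecules, had 26.3 in the control against 26.1, 97.2 and 33.4 in T1, T2 and T3. TAP1, the neighbour of PSMB8 and PSMB9, had 19.7 in the control against 34.3, 37.4 and 25.9 in T1, T2 and T3. At the other end, ERAP1, which trims peptides, had 41, 6, 0 and 1 counts, and IRF2 had 17.1 CPM in the control against 14.5, 14.9 and 12.6. The chaperone PDIA3 was next lowest by mean log2 ratio but above its control value in each treated library, with 55.4 against 67.7, 127 and 57.8. The interval of its T3 ratio (0.858 to 1.27) spans 1.

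Core and regulatory subunits were set against each other within each library. Core genes had 8452, 5289, 116 and 3035 counts and regulatory genes 18261, 7258, 169 and 5079. The core to regulatory ratio was 0.463 (0.451 to 0.475) in the control, 0.729 (0.703 to 0.755) in T1, 0.686 (0.537 to 0.875) in T2 and 0.598 (0.571 to 0.625) in T3. The control library was the lowest, and its interval did not reach those of the treated libraries. Relative to the control the ratio was 1.57 (1.51 to 1.65), 1.48 (1.16 to 1.89) and 1.29 (1.23 to 1.36) times as high, or 0.53 on the log2 scale ± 0.15 (SD, n = 3; exact two-sided permutation p = 0.5, the smallest possible).

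Both classes had a lower share than in the control, the regulatory one more so. The core share was 0.954, 0.624 and 0.810 of the control share, and the regulatory share 0.606, 0.421 and 0.628. Below 0.6 were 2, 9 and 5 of the 17 core genes and 10, 13 and 11 of the 22 regulatory genes, where 36.5%, 18.8% and 37.9% of all goat genes were. The core count lay under that background in T1 and T3 and over it in T2, and the regulatory count lay over it in all 3. For T2 the background of 18.8% covers many genes too low to be placed, here as in the counts below, and among genes above 37.4 CPM in the control it was 53.7%. Leaving out the inducible subunits and the PSME activators, the ratio of core to PSMC and PSMD counts was still higher than in the control by 1.48 (1.41 to 1.55), 1.25 (0.952 to 1.62) and 1.24 (1.17 to 1.31) times, where the interval of T2 spans 1.

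**Figure D3:**
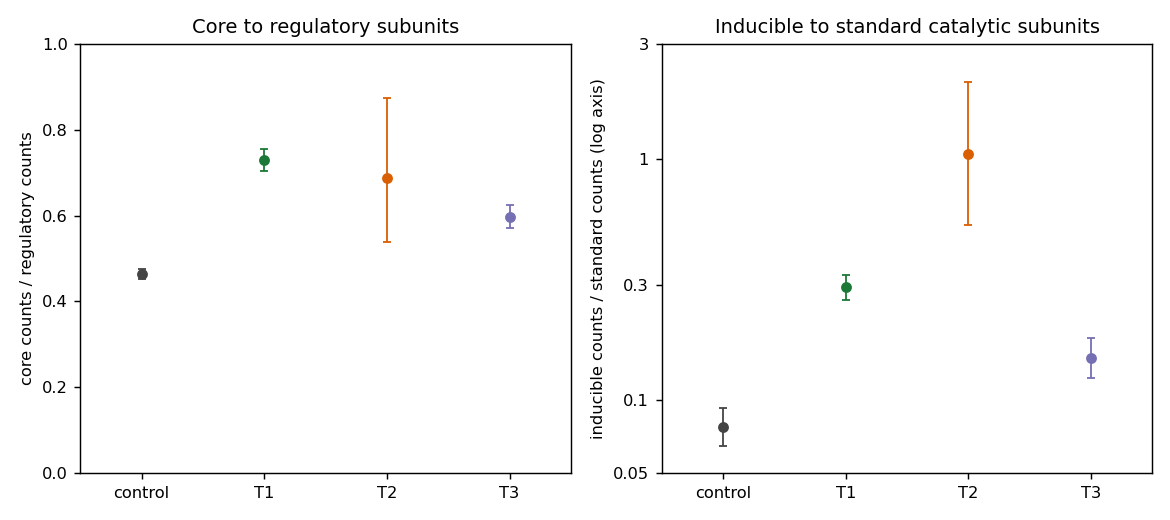
Count ratios within each library (x axis) for core to regulatory subunits (left, linear y axis) and inducible to standard catalytic subunits (right, log y axis), with exact 95% intervals for counting error as bars. In both panels the control, at 0.463 and 0.0778, is the lowest, and T2 has the widest interval.

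The ATPases of the cap differed in how far they were from the control level. The 5 PSMC genes together had 0.771, 0.504 and 0.889 of the control share, a smaller difference than for PSMD genes, and the PSMC to PSMD ratio was 1.41 (1.33 to 1.501), 1.30 (0.909 to 1.84) and 1.66 (1.55 to 1.78) times that of the control. PSMC5 was level across the libraries, with 204 CPM in the control against 210, 194 and 225 in T1, T2 and T3, and its log2 fold change was 0.04 (edgeR adjusted p = 0.988). That value became -1.06 with the unnamed unigenes in the base. PSMC6 was low throughout, with 165, 43, 0 and 33 counts. With 3 counts taken as the limit, the 0 counts of PSMC6 in T2 would place it at least 1.21-fold below the control. The exact interval of that ratio, 0 to 1.03, spans 1, so a difference in T2 was not resolved.

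PSMC3 had the highest level per length of the ATPases in the control, at 173 CPM per kb, followed by PSMC5 at 144. It had 275 CPM in the control against 170, 127 and 262 in T1, T2 and T3. The gene was assembled as 2 unigenes, one of 1145 bases with the start of the coding sequence and one of 445 bases with its end and a run of A bases. The start piece had 1362 counts in the control against 354, 9 and 485 in T1, T2 and T3. The end piece had 309 in the control against 323, 8 and 223 in T1, T2 and T3. The end to start ratio of this single transcript was thus 0.227 (0.200 to 0.257) in the control against 0.912 (0.782 to 1.06), 0.889 (0.298 to 2.60) and 0.460 (0.391 to 0.540) in T1, T2 and T3. Per length the start piece was the more covered one in the control, at 1190 counts per kb against 694. In the treated libraries the end piece was, at 726 against 309 in T1, 18.0 against 7.86 in T2 and 501 against 424 in T3. The part of this shift along the transcript in the level of PSMC3 was not tested.

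The non-ATPase subunits had the lowest ratios of the larger families, with 0.546, 0.387 and 0.535 of the control share. Of the 13 PSMD genes, 7, 9 and 9 were below 0.6 in T1, T2 and T3, where 36.5%, 18.8% and 37.9% of all goat genes were. PSMD4, a ubiquitin receptor of the cap, was the most abundant proteasome gene per length in the control, at 331 CPM per kb. It had 494 CPM in the control against 307, 299 and 335 in T1, T2 and T3, the closest agreement among treated libraries of any gene named here, at ratios of 0.622, 0.605 and 0.678. The edgeR log2 fold change of PSMD4 was -0.65 (adjusted p = 0.748). PSMD10, a chaperone of cap assembly, had 28, 8, 0 and 4 counts, and a difference in T2 was not detectable at this depth.

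PSMD2 and PSMD3, scaffold subunits of the cap, were among the 5 genes with the lowest ratios. PSMD2 had 323 CPM in the control against 94.2, 59.8 and 140 in T1, T2 and T3, at ratios of 0.292 (0.261 to 0.326), 0.185 (0.0799 to 0.366) and 0.433 (0.387 to 0.484). PSMD3 had 189 in the control against 87.4, 29.9 and 77.5 in T1, T2 and T3. The treated values of both genes lay well under the control value. Their edgeR log2 fold changes were -1.68 (unadjusted p = 0.022, adjusted p = 0.258) and -1.46 (unadjusted p = 0.040, adjusted p = 0.330).

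PSMD13 had the second highest control level of the PSMD family per length, at 126 CPM per kb, and one of the lowest ratios. It had 932 counts in the control against 92, 3 and 193 in T1, T2 and T3, with ratios of 0.151 (0.120 to 0.187), 0.146 (0.0301 to 0.429) and 0.467 (0.398 to 0.546). By edgeR its log2 fold change was -1.88 (unadjusted p = 0.010, adjusted p = 0.192). The unigene of PSMD13 ends 26 bases after the coding sequence and may lack the end of its transcript. It shares a run of 39 bases with a second unigene of the same assembly component. That neighbour is paired with NLRP6 and had 2956 counts in the control against 3982, 435 and 3453 in T1, T2 and T3, or 486 CPM against 998, 3251 and 1280. The neighbour was thus lowest in the control, where PSMD13 was highest. Reads of the shared run could have been counted for either unigene, and reads from the end of the PSMD13 transcript, if its unigene lacks that end, may have been counted for the neighbour. Whether they were was not tested, so the level and the ratios of PSMD13 are uncertain.

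The activator genes split. PSME1 and PSME2 encode the subunits of the interferon-inducible activator, PSME3 its nuclear relative, and PSME4 a large single-chain activator. PSME1 had 57.2 CPM in the control against 58.4, 52.3 and 78.2 in T1, T2 and T3. PSME2 had 18.4 in the control against 43.3, 37.4 and 34.5 in T1, T2 and T3, with ratios of 2.36 (1.85 to 3.02), 2.03 (0.647 to 4.88) and 1.87 (1.41 to 2.49). PSME2 was thus higher beyond counting error in T1 and T3, and its edgeR log2 fold change was 1.07 (adjusted p = 0.569). With the unnamed unigenes in the base that value was -0.04. The ratio of PSME1 and PSME2 to PSMC counts, which is free of the base, was 1.75 (1.51 to 2.02), 2.35 (1.14 to 4.51) and 1.68 (1.43 to 1.96) times that of the control.

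PSME3 had 48.6 CPM in the control against 23.6, 29.9 and 31.5 in T1, T2 and T3. PSME4 had the lowest mean log2 ratio of all 44 genes, with 1422 counts in the control against 309, 4 and 141 in T1, T2 and T3, or 234 CPM against 77.4, 29.9 and 52.3. Its ratios were 0.331 (0.292 to 0.375), 0.128 (0.0348 to 0.328) and 0.224 (0.187 to 0.266), so every treated library lay far under the control. The edgeR log2 fold change of PSME4 was -2.05 (unadjusted p = 0.0043, adjusted p = 0.134), the smallest p among the 44 genes. PSME4 also had the longest unigene of the set, at 7076 bases.

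PSMF1, the inhibitor that binds the core, had 83.8 CPM in the control against 62.1, 29.9 and 64.9 in T1, T2 and T3, lower in all 3 (edgeR adjusted p = 0.748). The assembly chaperones had a summed share above that of the control in all treated libraries, at 1.68 (1.51 to 1.87), 1.94 (1.28 to 2.84) and 1.37 (1.20 to 1.55). With the unnamed unigenes in the base they would stand below the control share in T2 and T3. PSMG4 had 36.0 CPM in the control against 66.6, 127 and 74.1 in T1, T2 and T3, with ratios of 1.85 (1.54 to 2.23), 3.53 (2.02 to 5.78) and 2.06 (1.69 to 2.51), higher than the control in every case. PSMG2 had 22.2 in the control against 41.3, 52.3 and 30.4 in T1, T2 and T3. The unigene of PSMG4 had 609 bases and that of PSME2 831 bases. Over all goat genes with a longest unigene under 1000 bases the median ratio was 1.27, 1.27 and 1.25. The part of length in these ratios was not tested.

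The remaining chaperones, PSMG1 and PSMG3, were above the control value in T1 only. In T1 both were higher beyond counting error, and PSMG3 had the highest ratio of the PSMG genes. In T2 and T3 both lay below the control value, with intervals of the ratio that spanned 1. PSMG1 had 35.3 CPM in the control against 44.6, 22.4 and 29.7 in T1, T2 and T3, and its log2 fold change was -0.05 in edgeR and 0.30 with TMM factors. PSMG3 had 14.1 in the control against 28.3, 7.47 and 13.0 in T1, T2 and T3, with 1 count in T2 (ratio 0.529, interval 0.0132 to 3.03). The adjusted p from edgeR was 0.489 for PSMG4, 0.668 for PSMG2, 0.986 for PSMG1 and 0.872 for PSMG3.

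Unigene length moved with the ratio to the control, for proteasome genes and for all goat genes alike. Over all goat genes with a longest unigene under 1000 bases the median ratio was 1.27, 1.27 and 1.25 in T1, T2 and T3. It was 0.872, 0.849 and 0.877 from 1000 to under 1500 bases, and 0.624, 0.463 and 0.563 from 3000 bases on. Over the same 3 classes the proteasome genes were also lower where unigenes were longer, with medians of 1.22, 0.677 and 1.08 over the 11 genes under 1000 bases, 0.959, 0.532 and 0.861 over the 18 genes of 1000 to under 1500 bases, and 0.331, 0.185 and 0.433 over the 3 genes of 3000 bases or more, PSMD1, PSMD2 and PSME4. Between these, the medians were 0.612, 0.615 and 0.648 over the 5 genes of 1500 to under 2000 bases. They were 0.662, 0.357 and 0.553 over the 7 genes of 2000 to under 3000 bases, so the fall was not steady in T1 and T2. Spearman's rho between length and ratio was -0.53, -0.38 and -0.54 across the 44 proteasome genes and -0.23, -0.16 and -0.34 across 7544 goat genes, as a description across genes that share libraries and depth. Within the classes it was -0.37, -0.07 and -0.20 for core genes and -0.30, -0.22 and -0.49 for regulatory genes.

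Core and regulatory genes differed in this property, with a median longest unigene of 1002 bases for the 17 core genes and 1526.5 bases for the 22 regulatory genes. Restricted to unigenes of at least 700 and under 1600 bases, which left 15 core and 12 regulatory genes, the core to regulatory ratio relative to the control was 1.37, 1.10 and 1.05 in T1, T2 and T3. Its mean fell to 0.22 on the log2 scale ± 0.20 (SD, n = 3). With TPM, which gives genes of long unigenes less weight in each class sum, the mean over all lengths was 0.25 ± 0.18 (SD, n = 3). TPM divides a gene by nearly the same length in every library. It therefore cannot remove a trend of the single-gene ratios with length. The part of length in the core to regulatory difference was not tested further. The inducible genes were not shorter than their partners in every pair, with 767 bases for PSMB9 against 834 for PSMB6, 994 for PSMB10 against 992 for PSMB7 and 1254 for PSMB8 against 1188 for PSMB5.

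**Figure D4:**
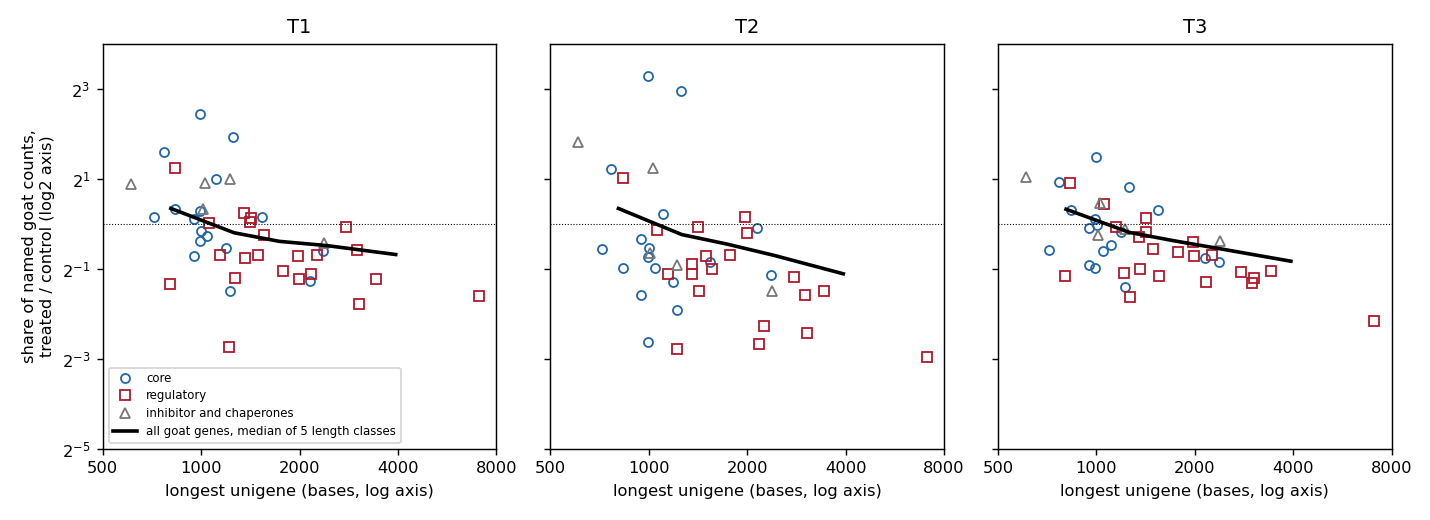
Ratio of each proteasome gene to the control (y axis, log2 scale) against the length of its longest unigene in bases (x axis, log scale) in the 3 treated libraries, with core genes as circles, regulatory genes as squares and PSMF1 and PSMG genes as triangles; the line joins the medians of all goat genes in 5 length classes, and 2 genes with 0 counts in T2 are not drawn. The line falls from about 1.27 to between 0.463 and 0.624, and PSME4 at 7076 bases is among the lowest points.

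Proteins that work with the proteasome had a median ratio close to that of all goat genes in T1 and T3, and a lower one in T2. Of 12 listed partners 8 had a unigene, and 2, 5 and 3 of them were below 0.6 in T1, T2 and T3, where 36.5%, 18.8% and 37.9% of all goat genes were. None was above 3. Their median ratio was 0.747, 0.341 and 0.716, against 0.762, 0.659 and 0.724 for all goat genes. UBE3C, a ubiquitin ligase on the cap, had 106 CPM in the control against 14.3, 14.9 and 46.0 in T1, T2 and T3. KIAA0368, which tethers the cap to the core, had 630 against 361, 112 and 431, and the deubiquitinase USP14 had 127 against 78.7, 29.9 and 70.8. All 3 were highest in the control. SHFM1, a small subunit of the cap that the name rule does not reach, had 128 in the control against 373, 142 and 248 in T1, T2 and T3. UCHL5, another deubiquitinase, had 184, 155, 0 and 88 counts, and PAAF1, a chaperone, had 36, 19, 1 and 8.

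Genes of ubiquitin supply and of the shuttling of substrates gave 15 of 20 with a mean of at least 10 counts, of which 7, 9 and 11 were below 0.6 and 1, 0 and 0 above 3 in T1, T2 and T3. The backgrounds over all goat genes were 36.5%, 18.8% and 37.9% below 0.6 and 4.51%, 7.62% and 2.16% above 3. The median ratio of the 15 genes was 0.602, 0.257 and 0.476, under the median of all goat genes (0.762, 0.659 and 0.724) in each library. NFE2L1, the transcription factor that drives proteasome genes when proteasome activity is short, had 1092 CPM in the control against 305, 187 and 388 in T1, T2 and T3. The shuttle factor RAD23B had 262 against 56.6, 67.3 and 99.3, and UBQLN4 had 275, 25, 0 and 36 counts. RPS27A, which encodes ubiquitin fused to a ribosomal protein, had 173 CPM in the control against 671, 396 and 381 in T1, T2 and T3. UBA6, a ubiquitin-activating enzyme, had 12.3 in the control against 9.52, 7.47 and 17.1 in T1, T2 and T3. RPS27A was thus highest in T1 and lowest in the control, whereas NFE2L1, RAD23B and UBQLN4 were lower than the control in T1, T2 and T3. The T2 value of UBA6 rests on 1 count. Its intervals were 0.509 to 1.16, 0.0152 to 3.48 and 0.937 to 2.02 in T1, T2 and T3, so they spanned 1 in each.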

How the data were processed

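RNA-seq of goat longissimus dorsi muscle was available for 1 control and 3 treated libraries. The authors sequenced Illumina libraries, assembled the reads into unigenes and counted them; the assembler, counter and genome annotation are not given in the sources used here, and FastQC 0.10.1 stands in the submitters' processing notes. The deposited expected counts, the authors' estimates of fragments per unigene, were whole numbers. The authors also deposited TPM, used here as an alternative, and FPKM, which was read only to check the tables. The deposited pairing table gives a goat gene and the percent identity of the protein match for each of 21220 unigenes. Of these, 25 carry no gene name and hold 23.8 to 97.9% of the paired counts. They were left out of library sizes, a choice made once the files were seen, and put back as an alternative. Tables of single transcripts and of FPKM classes were not used.

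Expected counts were summed per gene over 21195 named unigenes and divided by the named total of the library. Ratios were taken to the 1 control library with exact 95% binomial intervals. The count test was edgeR 4.0.16 (glmQLFit and glmQLFTest, filterByExpr, no TMM) in R 4.3.3, with Benjamini-Hochberg adjustment over all genes. DESeq2 1.42.0 gave the Wald test, and scipy 1.17.1 the exact intervals and Spearman's rho. The permutation tests went through all relabellings of the 4 libraries directly. The factors called DESeq2 size factors were computed and used in edgeR, by its RLE method. The edgeR step was tested on simulated data with 8388 genes, where it made 1 false call. Genes were named by rule: all catalytic, PSME, PSMF and PSMG genes, the 2 highest per length in the control library of each other family, the 5 highest and 5 lowest by mean log2 ratio, and the 3 highest and 3 lowest of each list. One gene that this rule names is not reported here. PSMA3, PSMA6, PSMC6, PSMD1 and PSMD10 were added after their values were seen. The members and lists were chosen with earlier results of these data known.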

Additional observations from a re-analysis of the deposited data

How the results depend on the processing

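The largest dependence was on the base of the shares. For the share of all proteasome genes, -0.63 as reported, the mean log2 ratio became -2.84 with the counts of all unigenes and -2.75 with the unnamed unigenes added, both set by T2, and -0.15 against the median goat gene (-0.043 without T2, and -0.39 with genes at 0 counts set to 3 counts). On those first 2 bases the genes below 0.6 numbered 24 and 22 in T1, 44 and 44 in T2, and 33 and 33 in T3. The genes above 3 then numbered 1 and 1 in T1 and 0 and 0 in T2. With TMM factors and with DESeq2 size factors 9 and 9 genes were below 0.6 in T3, and 1 and 1 above 3. Limits of 0.5 and 2 gave 6, 5 and 2 genes above the upper one. TMM factors moved the median log2 fold change of all genes from -0.36 to -0.01. The core to regulatory ratio, 0.53 as reported, was 0.25 with TPM and 0.22 with unigenes of at least 700 and under 1600 bases, the latter chosen after seeing the data, as were the bases with unnamed unigenes and with the median gene. Leaving out 1 treated library at a time gave -0.73 to -0.47 for the share, 0.47 to 0.61 for core to regulatory and 1.43 to 2.84 for inducible to standard. The count test called 0 of the 44 genes under each of its 10 alternatives, where adjusted p values of the named genes went no lower than 0.084. With all genes tested, it called 19 higher and 175 lower without T2, 8 and 5 without T3, 15 and 9 without T1, 12 and 26 with TMM factors, 16 and 28 with DESeq2 size factors and 51 and 152 with no filter, against 6 and 53 as reported. By DESeq2 the counts were 2 and 0, and they were 0 and 0 on either base with unnamed unigenes. Of the 25 named proteasome genes tested, 8 and 8 changed the sign of the fold change with the counts of all unigenes and with the unnamed unigenes added, 3, 2 and 5 without T1, T2 or T3, 2 with TMM factors, and 1 and 1 with DESeq2 size factors and DESeq2's Wald test. No paired analysis was possible because the control label carries no replicate number and only 1 control library exists. The T2 library, with 133809 named counts, limits every value of low genes.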
